A study of Mus musculus with 7 samples.

Results

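The mitochondrial ribosomal protein genes of the mouse were followed through a comparison of 3 AAV treatments in the prefrontal cortex (PFC). A gene was a member when it was listed as protein-coding and its symbol began with Mrpl or Mrps followed by a number, which gave 78 of the 55416 genes listed and of the 21885 listed as protein-coding. The symbols place 49 members in the large subunit (Mrpl) and 29 in the small subunit (Mrps). The libraries came from PFC tissue of female C57BL/6 wild-type mice. Ctr mice received an empty AAV vector (n = 3 libraries), Ref mice received AAV carrying the human lncRNA PAXIP1-AS1 with its reference C allele (n = 2) and Alt mice received the same lncRNA with its alternative G allele (n = 2). In all groups the vector was injected on both sides of the PFC and carried the human synapsin promoter, which acts in neurons, with an EGFP reporter, so that Ctr mice also carried virus. The sequenced RNA was whole tissue RNA enriched for polyadenylated transcripts. The labels do not say whether a library came from 1 mouse or from several, nor do they give an age, so p-values measure the spread between these libraries. The level of the human transcript itself was not analysed here.

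Mitochondrial ribosomes translate the few proteins that mitochondrial DNA encodes, all of them subunits of the oxidative phosphorylation complexes. Their rRNAs come from mitochondrial DNA, whereas every ribosomal protein is encoded in the nucleus, made in the cytosol and imported. Many of these proteins have a counterpart in the bacterial ribosome and the others are found in mitochondria alone. In people, inherited defects in several of these genes cause combined oxidative phosphorylation deficiency, which often affects brain and heart.

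The family took a small share of the reads of each library. Total counts lay between 16655697 and 20750857 per library and were lowest in Alt replicate 1. Of these, 10280 to 24881 reads fell on members, and the median member had 95 and 172 reads in the Alt replicates, whereas the other 5 libraries had medians of 215 to 296 reads. A filter on low counts kept 77 members for testing. The remaining member, Mrpl53, was listed at 0 reads in all 7 libraries, and the whole of its interval lies inside the gene Gm42688 on the same strand. Of the 10 neuronal marker genes checked, such as Snap25 and Rbfox3, all were detected in every library. Their summed level lay between 10723 and 10898 CPM (counts per library size, scaled by edgeR's TMM factors) in Ctr.

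The members were mostly short genes expressed at a middling level. FPKM values, which scale a count by gene length and library total, allow levels to be compared between genes. The median member reached 5.06 FPKM averaged over the 7 libraries, and the median protein-coding gene tested reached 4.03 FPKM. The highest level was that of Mrpl12, the stalk protein that recruits translation factors, at 11.99 FPKM (range 7.68 to 15.7). Mrpl10, which anchors that stalk, followed at 11.9 FPKM (range 8.65 to 16.2), and the ranges of these neighbours overlapped. Mrpl49 had 10.6 FPKM (range 3.33 to 14.7), Mrps23 had 10.5 FPKM (range 2.85 to 13.3) and Mrpl41 had 10.1 FPKM (range 2.97 to 18.4). These 5 ranges overlapped one another, so that their order does not exceed the spread between libraries. At the lower end stood Mrpl33 at 0.795 FPKM (range 0.504 to 0.9998), then Mrpl23 at 1.45, Mrps10 at 1.48, Mrpl15 at 1.49 and Mrps35 at 1.501 FPKM. The gene length in the table had a median of 2533 bases over the members tested, from 607 to 8631 bases, and of 4051 bases over all genes tested. In all, 56 of 77 members were shorter than that second median.

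Promoters of many members, but not of all, held at least 1 of 3 short sequence motifs. NRF1, the ETS-family factor GABP and YY1 are transcription factors known to act on nuclear genes for mitochondrial proteins. Promoter windows of RefSeq (GRCm38.p6), which run from 250 bases before to 50 bases after a gene's start, were matched by symbol for 69 of the 78 members. They were searched on both strands for GCGCNTGCG (NRF1), CCGGAAG (ETS) and AAGATGGCG (YY1), none of which overlapped another in the windows printed here. The NRF1 motif stood in the windows of 18 of 69 members (26.1%) and in 13.9% of the protein-coding genes tested. The ETS motif stood in 26 of 69 members (37.7%) against 17.98%, and the YY1 motif in 8 (11.6%) against 3.13%. At least 1 of the 3 was found for 43 of 69 members (62.3%), for 30.8% of the protein-coding genes tested and in 14.9% of all promoter windows in the table. These shares are descriptions and were not tested.

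**Figure D1:**
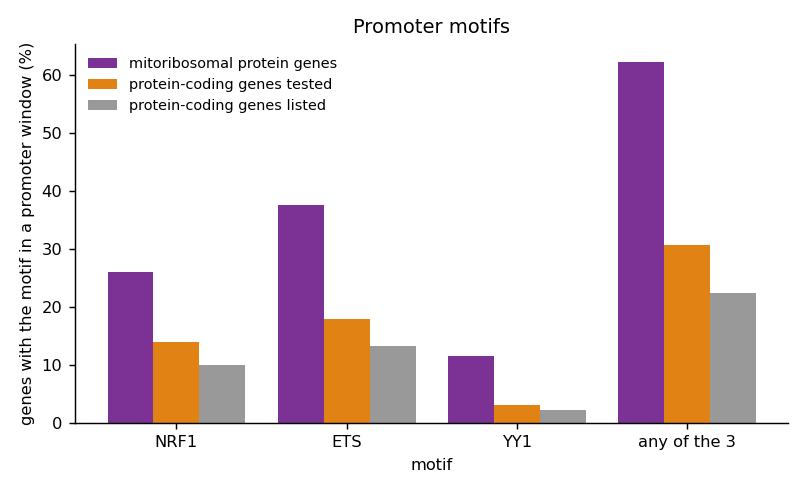
Share of genes (%, vertical axis) with each motif in a promoter window, for the 69 mitochondrial ribosomal protein genes with a window (purple), for protein-coding genes that were tested (orange) and for the 16818 protein-coding genes listed that had a window (grey). The purple bar is the highest for each motif, at 26.1% for NRF1, 37.7% for ETS, 11.6% for YY1 and 62.3% for any of the 3.

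Promoter windows of 4 members are printed, with the YY1 motif in Mrps24 and Mrps11, the ETS motif in Mrpl3 and both an NRF1 and an ETS motif in Mrps21, chosen to show each motif. Mrps24 had the smallest p of the family in Alt versus Ctr, Mrps21 was among the members with the lowest log2FC, and Mrpl3 is an abundant member whose levels overlapped between groups. Mrps11 starts next to Mrpl46 on the opposite strand, and the windows of this divergent pair share 141 bases. Capitals mark the motifs, on either strand.
Mrps24 (chr11:5707652-5707951, minus strand): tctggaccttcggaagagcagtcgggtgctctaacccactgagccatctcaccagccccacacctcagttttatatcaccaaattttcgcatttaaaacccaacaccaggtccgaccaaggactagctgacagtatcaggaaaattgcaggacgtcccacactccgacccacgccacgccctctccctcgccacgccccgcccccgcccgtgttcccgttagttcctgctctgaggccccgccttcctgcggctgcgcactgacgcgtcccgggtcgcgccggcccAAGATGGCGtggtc
Mrps21 (chr3:95871465-95871764, minus strand): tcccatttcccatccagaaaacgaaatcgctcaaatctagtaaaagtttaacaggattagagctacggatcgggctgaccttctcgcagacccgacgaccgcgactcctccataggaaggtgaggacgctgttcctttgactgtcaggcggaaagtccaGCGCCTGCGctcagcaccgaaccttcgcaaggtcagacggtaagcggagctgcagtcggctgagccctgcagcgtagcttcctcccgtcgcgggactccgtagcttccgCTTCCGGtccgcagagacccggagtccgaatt
Mrpl3 (chr9:105053018-105053317, plus strand): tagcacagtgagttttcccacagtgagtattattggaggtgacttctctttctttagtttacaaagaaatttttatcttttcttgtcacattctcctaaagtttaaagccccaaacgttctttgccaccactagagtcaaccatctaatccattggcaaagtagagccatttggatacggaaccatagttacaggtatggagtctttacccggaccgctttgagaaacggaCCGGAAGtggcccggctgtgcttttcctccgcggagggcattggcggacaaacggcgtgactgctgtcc
Mrps11 (chr7:78782881-78783180, plus strand): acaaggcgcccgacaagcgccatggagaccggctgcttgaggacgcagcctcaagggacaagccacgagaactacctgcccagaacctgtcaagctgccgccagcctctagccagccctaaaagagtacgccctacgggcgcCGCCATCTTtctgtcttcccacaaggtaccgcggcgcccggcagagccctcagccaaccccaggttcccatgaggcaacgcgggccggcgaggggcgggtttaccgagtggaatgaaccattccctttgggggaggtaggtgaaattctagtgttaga
The YY1 motif of Mrps24 lies after the start of the gene, beginning at base 37. In Mrps21 the NRF1 motif begins 91 bases before the start and the ETS motif, in reverse, at base 19 after it. In Mrpl3 the ETS motif begins 19 bases before the start, and in Mrps11 the reversed YY1 motif begins 108 bases before it.

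To ask whether the family differed between the G allele lncRNA and the empty vector, Alt was compared with Ctr. This comparison does not separate the allele from the presence of the lncRNA. Members were lower in Alt, with a median log2 fold change (log2FC) of -0.64 over the 77 tested, which is a level 35.9% lower, beside a median of -0.026 over all 17254 genes tested. The log2FC was negative for 72 of 77 members. By edgeR's quasi-likelihood test, 30 of 77 members were lower at an unadjusted p of 0.05 (38.96%), whereas 10.3% of all genes tested were lower by the same rule. In what follows, a member is said to have fallen when it passed the unadjusted threshold, and the p printed beside a gene is the adjusted p of edgeR unless DESeq2 is named. No member was higher, and 9.45% of all genes were. In tissue RNA, fewer cells of a type and less RNA per cell cannot be told apart. None of the 77 passed an adjusted p of 0.05 in edgeR, where the smallest Benjamini-Hochberg adjusted p of a member was 0.1197. DESeq2 called 8 members lower at an adjusted p of 0.05, against 3.47% of all genes with an adjusted p. Both Alt libraries lay below all 3 Ctr libraries for 40 of 77 members and for 18.1% of all genes, and below all 5 Ctr and Ref libraries for 32 members and for 13.1% of all genes.

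The decrease was larger in 1 of the Alt libraries. The median member deviated from the mean of Ctr, on the log2 CPM scale, by -1.02 for Alt replicate 1 and -0.36 for its partner, Alt replicate 2. The same median lay at 0.11, -0.055 and -0.0017 in Ctr and at 0.0040 and -0.16 in Ref. Both Alt libraries thus lay below all 5 others, with Alt replicate 1 lowest. Summed over the 78 members, the normalized level was 1235, 1064 and 1116 CPM in Ctr, 1130 and 1012 CPM in Ref, and 669 and 937 CPM in Alt. The group means were 1138 ± 87.9 (SD, n = 3), 1071 ± 83.7 (SD, n = 2) and 803 ± 190 (SD, n = 2). Alt replicate 1 was the lowest library for 58 of 77 members (75.3%) and for 32.2% of all genes tested. Without Alt replicate 1 the median log2FC was -0.38 and 9 members were lower at p of 0.05, against 4.46% of all genes. Without Alt replicate 2 it was -1.05, with 53 members lower against 18.9% of all genes, and 1 member, Mrpl1, was higher (log2FC 0.57), against 14.3% of all genes. Without Ctr replicate 1, 19 were lower, against 6.06% of all genes. The 9 members lower without Alt replicate 1 were Mrps24, Mrps28, Mrps33, Mrpl16, Mrpl18, Mrpl20, Mrpl28, Mrpl41 and Mrpl55, of which Mrpl18 and Mrpl55 are named only for this count, after their values were seen.

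**Figure D2:**
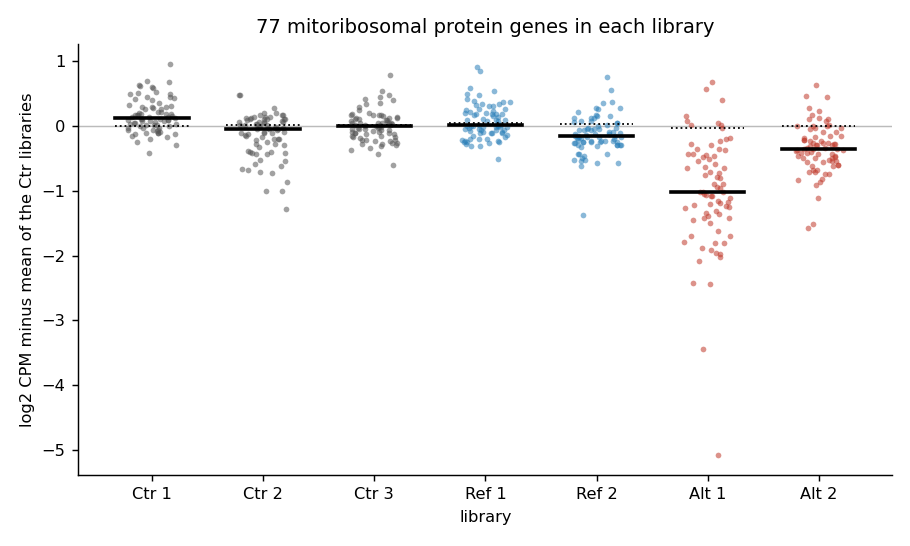
Log2 CPM of each of the 77 members tested minus its mean in Ctr (vertical axis) in each library (horizontal axis), with 1 dot per gene. Solid bars are the medians of the members and dotted bars the medians of all genes tested. Medians of -1.02 (Alt replicate 1) and -0.36 (Alt replicate 2) stand below the range of -0.16 to 0.11 in the other 5 libraries.

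Members of the small subunit gave some of the clearest differences. Mrps24, the counterpart of bacterial S3 at the entry of the mRNA channel, measured 16.04, 14.4 and 11.5 CPM in Ctr, 12.8 and 10.2 in Ref, and 4.42 and 7.53 in Alt. Its Alt libraries lay below all the others (log2FC -1.22 ± 0.30 (SE), adjusted p = 0.1197; DESeq2 adjusted p = 0.0123). Reads on Mrps24 may be shared with Urgcp, which overlaps part of its interval on the same strand. Mrps33, a protein without a bacterial counterpart, measured 15.2, 6.74 and 11.98 CPM in Ctr, 12.1 and 11.9 in Ref, and 2.99 and 5.97 in Alt, again with both Alt libraries lowest (log2FC -1.33 ± 0.39 (SE), adjusted p = 0.127). Mrps21, the counterpart of bacterial S21, measured 8.74, 3.25 and 7.71 CPM in Ctr, 6.43 and 8.89 in Ref, and 1.04 and 3.57 in Alt. Here Ctr replicate 2 lay just below Alt replicate 2, so that the groups overlapped (log2FC -1.49 ± 0.54 (SE), adjusted p = 0.171). Mrps23 measured 19.5, 20.5 and 19.9 CPM in Ctr, 19.6 and 13.7 in Ref, and 4.81 and 14.7 in Alt, so that Ref replicate 2 lay below Alt replicate 2 (log2FC -1.02 ± 0.37 (SE), adjusted p = 0.171).

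In the large subunit, Mrpl28, Mrpl20 and Mrpl41 fell. Mrpl28, the counterpart of bacterial L28, measured 18.3, 15.4 and 14.1 CPM in Ctr, 15.3 and 13.96 in Ref, and 5.98 and 9.59 in Alt (log2FC -1.03 ± 0.27 (SE), adjusted p = 0.1197). Mrpl20, which in bacteria is needed to assemble the large subunit, measured 9.98, 10.7 and 9.29 CPM in Ctr, 11.1 and 8.84 in Ref, and 2.99 and 5.58 in Alt (log2FC -1.21 ± 0.32 (SE), adjusted p = 0.121). Both Alt libraries lay below every other library for both genes. Mrpl41, a protein without a bacterial counterpart, measured 15.7, 7.53 and 9.15 CPM in Ctr, 14.5 and 7.08 in Ref, and 2.86 and 4.68 in Alt (log2FC -1.51 ± 0.42 (SE), adjusted p = 0.124), with a wide spread within Ctr and Ref and no overlap with Alt. Mrpl16, the counterpart of bacterial L16, measured 16.4, 15.8 and 12.9 CPM in Ctr, 12.4 and 12.7 in Ref, and 8.59 and 8.87 in Alt (log2FC -0.78 ± 0.23 (SE), adjusted p = 0.127), and here the Alt libraries were nearly equal. Mrpl4, whose bacterial counterpart lines the exit tunnel of the nascent peptide, measured 23.8, 19.00 and 16.6 CPM in Ctr, 22.5 and 17.5 in Ref, and 7.22 and 13.3 in Alt (log2FC -0.94 ± 0.29 (SE), adjusted p = 0.133). Mrpl30 (log2FC -0.78 ± 0.23 (SE), adjusted p = 0.127), Mrpl13 (log2FC -0.75 ± 0.24 (SE), adjusted p = 0.143) and Mrpl49 (log2FC -0.999 ± 0.32 (SE), adjusted p = 0.143) complete the 10 members with the smallest p, and for each of them both Alt libraries lay below all Ctr and Ref libraries.

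The lowest log2FC of the family rested on few reads. Mrpl54 measured 3.38, 3.54 and 3.25 CPM in Ctr, 4.06 and 3.93 in Ref, and 0 and 2.06 in Alt, with 68, 72 and 70 reads in Ctr and 0 and 37 in Alt. Its log2FC of -1.68 depends on how a count of 0 is treated and did not pass the test (adjusted p = 0.321). Mrpl52 measured 10.03, 5.76 and 5.11 CPM in Ctr, 6.38 and 5.58 in Ref, and 0.5203 and 4.91 in Alt and did not pass either (log2FC -1.34, adjusted p = 0.275), and its Alt libraries lay far apart.

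**Figure D3:**
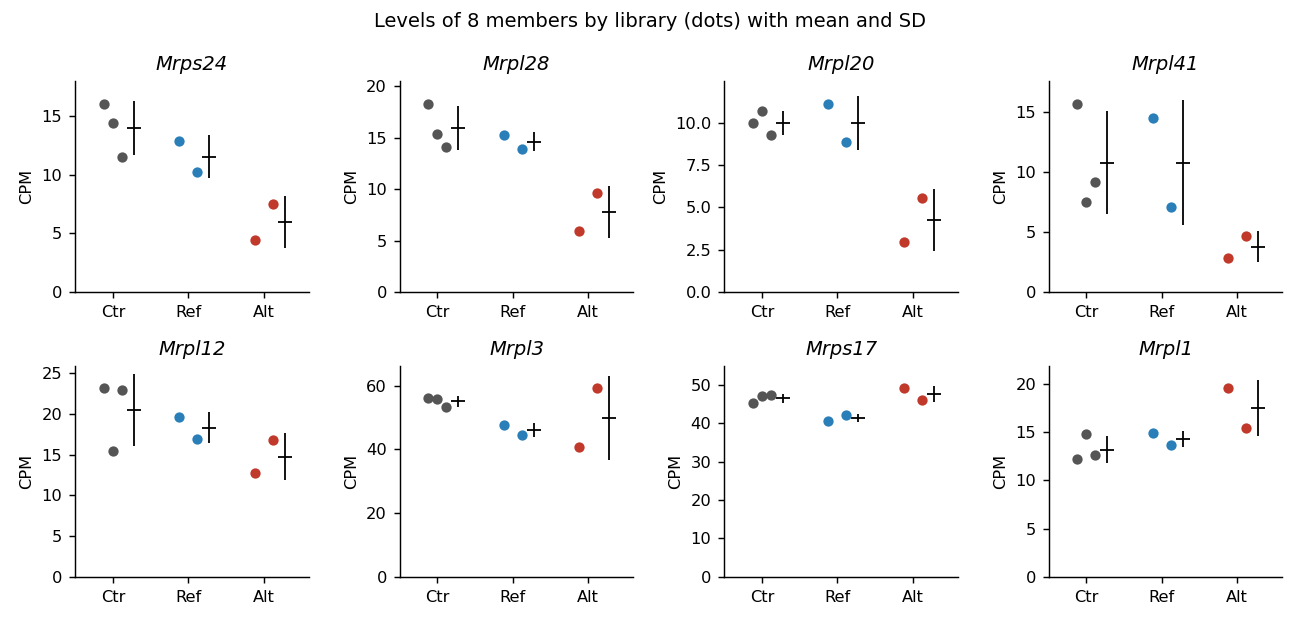
Normalized level (CPM, vertical axes from 0) of 8 members in each library (dots) of Ctr (grey, n = 3), Ref (blue, n = 2) and Alt (red, n = 2), with the mean and SD of each group in black. The Alt dots lie below all others for Mrps24, Mrpl28, Mrpl20 and Mrpl41, overlap Ctr for Mrpl12 and Mrpl3, and reach the highest values for Mrpl1.

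A few members had log2FC values near 0 or above it. Mrps17, the counterpart of bacterial S17, was among the most read members at 45.2, 47.1 and 47.3 CPM in Ctr, 40.5 and 42.04 in Ref, and 49.04 and 46.1 in Alt. Its Alt and Ctr libraries overlapped (log2FC 0.033 ± 0.15 (SE), adjusted p = 0.937). Mrpl3, which lies near the catalytic centre and is linked to cardiomyopathy in people, measured 56.2, 55.7 and 53.1 CPM in Ctr, 47.6 and 44.6 in Ref, and 40.6 and 59.1 in Alt, with Alt replicates on both sides of Ctr (log2FC -0.14 ± 0.18 (SE), adjusted p = 0.718). Mrpl1, whose bacterial counterpart forms the stalk that guides tRNA out of the ribosome, measured 12.2, 14.8 and 12.6 CPM in Ctr, 14.8 and 13.7 in Ref, and 19.5 and 15.4 in Alt. It was the only member tested whose Alt libraries both lay above all Ctr libraries, as they did for 16.8% of all genes, but it did not pass the test (log2FC 0.41 ± 0.22 (SE), adjusted p = 0.326), which it passed at an unadjusted p without Alt replicate 2. Mrpl22 had a log2FC of 0.42 (adjusted p = 0.698) on 22 to 86 reads per library, Mrpl35 of 0.034 (adjusted p = 0.958) and Mrpl46 of 0.041 (adjusted p = 0.961). The difference between these members and the rest was not tested.

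**Figure D4:**
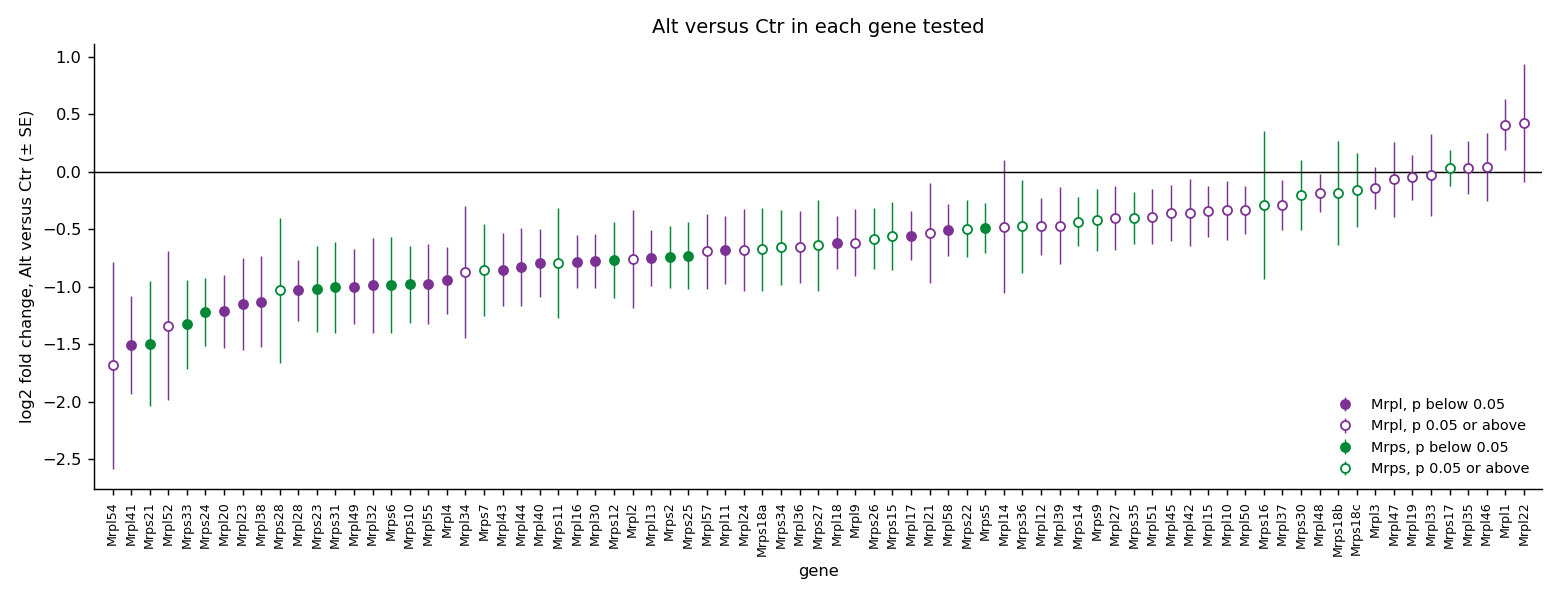
Log2 fold change of Alt versus Ctr (vertical axis, with SE bars) for the 77 members tested, ordered from lowest to highest, with Mrpl in purple and Mrps in green. Filled symbols have an unadjusted p below 0.05 and number 30, all of them below 0. Only 5 members have a positive value, none of which passed the test.

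Both subunits held members that fell, and their counts stand beside 10.3% of all genes lower and 9.45% higher. Of 48 Mrpl members tested, 19 were lower and 0 higher in Alt than in Ctr, with a median log2FC of -0.62. Of 29 Mrps members, 11 were lower and 0 higher, with a median of -0.66. Members with a counterpart in the bacterial ribosome had a median of -0.62 (18 of 47 lower), and members without one had -0.65 (12 of 30 lower). This split was made after the values were seen, and no difference between these classes was tested.

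The 5 members described next were named for a role in the steps of translation, and all had a negative log2FC, with no test of the differences between them. Mrpl12 measured 23.1, 15.4 and 22.99 CPM in Ctr, 19.6 and 16.96 in Ref, and 12.7 and 16.8 in Alt (log2FC -0.47 ± 0.25 (SE), adjusted p = 0.311), and its groups overlapped. Mrpl10, which carries it, had a log2FC of -0.34 (adjusted p = 0.5003). Mrpl11 at the base of the same stalk fell (log2FC -0.68, adjusted p = 0.228). Mrpl58, a peptidyl-tRNA hydrolase that releases stalled chains, also fell (log2FC -0.51, adjusted p = 0.235). In the small subunit Mrps5, whose bacterial counterpart takes part in the accuracy of decoding, fell (log2FC -0.49, adjusted p = 0.241).

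Members linked to combined oxidative phosphorylation deficiency in people gave both passed and failed tests. Mrpl44 (log2FC -0.83, adjusted p = 0.207), Mrps2 (-0.74, adjusted p = 0.169) and Mrps25 (-0.73, adjusted p = 0.198) fell, as did Mrps23. Mrps7, Mrps14, Mrps22, Mrps28 and Mrps34 had log2FC values from -1.03 to -0.43 with adjusted p from 0.265 for Mrps7 to 0.384 for Mrps28. Mrps34 lies wholly inside Mapk8ip3 on the opposite strand, and whether strand was used in counting is not given in the sources used here. Mrps16 measured 9.88, 4.53 and 5.06 CPM in Ctr, 6.68 and 7.34 in Ref, and 1.04 and 9.48 in Alt, so that its Alt libraries were the lowest and the second highest of the 7 (adjusted p = 0.853).

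The remaining members with a special place mostly did not pass the test. The paralogs Mrps18a, Mrps18b and Mrps18c had log2FC values of -0.68, -0.18 and -0.16 (adjusted p = 0.318, adjusted p = 0.867 and adjusted p = 0.838). Mrps30, which despite its symbol sits in the large subunit, had -0.20 (adjusted p = 0.767). Mrps27, an RNA-binding pentatricopeptide repeat protein, had -0.64 (adjusted p = 0.388), and Mrps36, which also serves the 2-oxoglutarate dehydrogenase complex, had -0.48 (adjusted p = 0.553). Among the members at the lower end of the FPKM order, Mrpl23 (-1.15, adjusted p = 0.162) and Mrps10 (-0.98, adjusted p = 0.156) fell. Mrpl15 (-0.34, adjusted p = 0.419), Mrps35 (-0.40, adjusted p = 0.349) and Mrpl33 (-0.029, adjusted p = 0.978) did not pass.

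Gene length moved with the difference. Over all genes tested, log2FC in Alt versus Ctr and gene length had a Spearman rho of 0.33 across 17254 genes, and over the members it was 0.40 across 77 genes. Genes are not independent replicates and share their libraries, so that these values are descriptions. Members under 1000 bases had a median log2FC of -0.95 (n = 8) beside -0.26 for all genes of that length. Members of 1000 to under 2000 bases had -0.81 (n = 22) beside -0.42, and members of 2000 to under 4000 bases had -0.66 (n = 25) beside -0.21. Members of 4000 bases or more had -0.37 (n = 22), where all genes of that length had 0.11. In each of the 4 classes the family's median was thus below that of genes of like length. Without Alt replicate 1 the medians of the members, from the shortest class to the longest, were -0.87, -0.44, -0.33 and -0.27. Those of all genes were then -0.29, -0.28, -0.13 and 0.057.

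**Figure D5:**
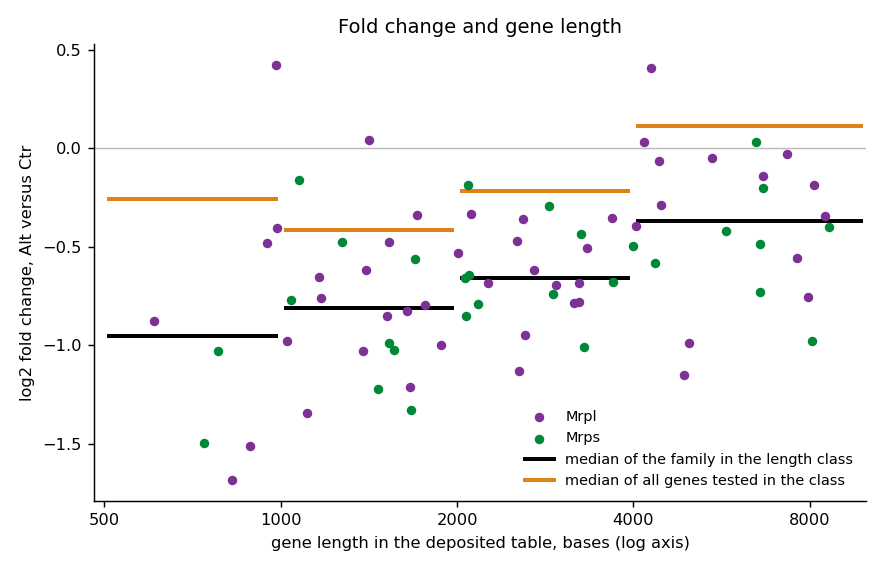
Log2 fold change of Alt versus Ctr (vertical axis) against gene length (horizontal log axis) for the 77 members tested, with the median of the family (black) and of all genes tested (orange) in each of 4 length classes. The black line lies below the orange line in every class, at -0.37 beside 0.11 for genes of 4000 bases or more.

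With a correction that removes each library's trend with gene length, 23 members were lower and 1 higher in Alt than in Ctr, against 9.06% of all genes lower and 7.3% higher, and the median log2FC was -0.48. The rho with length over the members was then 0.038. After this correction, members in Alt replicate 1 deviated from Ctr by a median of -0.72 and those in Alt replicate 2 by -0.28, while the other 5 medians ran from -0.21 to 0.12. The 1 member higher after correction was Mrpl1 (log2FC 0.49, adjusted p = 0.298). Mrps24 (-0.91, adjusted p = 0.153), Mrpl28 (-0.71, adjusted p = 0.182) and Mrpl20 (-0.93, adjusted p = 0.168) stayed lower.

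To set the alleles against each other, Alt was compared with Ref, which shares its Alt libraries with the comparison above. The median log2FC of the members was -0.52, beside -0.037 over all genes. In edgeR, 21 of 77 members were lower at an unadjusted p of 0.05 and none higher. Of all 17254 genes tested, 8.83% were lower and 1157 genes were higher. None passed an adjusted p of 0.05 in edgeR (smallest adjusted p = 0.233), and DESeq2 called 1, Mrpl23, at an adjusted p of 0.04603, where it gave an adjusted p for 71 members and called 1.66% of all genes that had one lower. Mrpl23, the counterpart of a bacterial protein at the mouth of the exit tunnel, measured 7.74, 6.65 and 8.13 CPM in Ctr, 10.01 and 9.62 in Ref, and 1.69 and 5.02 in Alt (log2FC -1.54 ± 0.43 (SE), adjusted p = 0.233). The smallest p in edgeR was that of Mrpl20 (log2FC -1.21 ± 0.34 (SE), adjusted p = 0.233). Mrps24 (log2FC -0.94 ± 0.32 (SE), adjusted p = 0.237), Mrpl28 (log2FC -0.91 ± 0.28 (SE), adjusted p = 0.236) and Mrpl41 (log2FC -1.51 ± 0.45 (SE), adjusted p = 0.236) were lower as well. Mrps17 and Mrpl3 had positive values of 0.21 (adjusted p = 0.598) and 0.11 (adjusted p = 0.836). The number of members lower was 6 without Alt replicate 1 (against 4.4% of all genes), 44 without Alt replicate 2 (against 17.3%) and 8 without Ref replicate 1 (against 2.88%). With the length correction it was 11, against 5.6% of all genes.

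The reference allele was compared with the control vector in Ref versus Ctr. No member passed an unadjusted p of 0.05 in edgeR or in DESeq2, whereas 3.14% of all genes did in edgeR. The median log2FC of the members was -0.083 and that of all genes 0.0055, and members ranged from -0.48 (Mrps28) to 0.66 (Mrpl22). The SE of a member in this comparison ran from 0.15 to 0.81, with a median of 0.30. Mrps24 had a log2FC of -0.28 ± 0.28 (SE), Mrpl28 of -0.12 ± 0.25 and Mrpl20 of 0.00057 ± 0.30. For 28 members both Ref values fell between the lowest and the highest Ctr value, while both lay below all Ctr values for 8 of 77 members (against 10.5% of all genes) and above them for 4 (against 12.4%).

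The partners of the family in the mitochondrial ribosome gave mixed values. Of 5 ribosomal proteins that carry other symbols, 2 were lower in Alt than in Ctr and none higher (median log2FC -0.59), against 10.3% and 9.45% of all genes. Gadd45gip1, a large subunit protein also known as CRIF1, measured 10.1, 5.41 and 7.01 CPM in Ctr, 6.72 and 6.83 in Ref, and 1.82 and 5.58 in Alt (log2FC -1.01 ± 0.45 (SE), adjusted p = 0.241), and Aurkaip1 of the small subunit measured 18.3, 18.2 and 18.3 CPM in Ctr, 21.7 and 14.3 in Ref, and 12.4 and 11.9 in Alt (log2FC -0.59 ± 0.23 (SE), adjusted p = 0.194). Chchd1 (log2FC -0.59, adjusted p = 0.305), the GTP-binding protein Dap3 (-0.25, adjusted p = 0.538) and Ptcd3 (0.093, adjusted p = 0.841) did not pass. Without Ctr replicate 1 and without Ctr replicate 3, 0 of the 5 were lower, against 6.06% and 8.12% of all genes. Without Ctr replicate 2, 3 of the 5 were lower. The length correction gave 0, against 9.06% of all genes. Their median was -0.25 without Alt replicate 1 and -0.28 with the length correction. The rRNAs of the same ribosome are read here from polyA-enriched RNA. The rRNA of the small subunit, mt-Rnr1, had a log2FC of 0.017 (adjusted p = 0.974), and that of the large subunit, mt-Rnr2, measured 10496, 11805 and 8539 CPM in Ctr, 8500 and 11772 in Ref, and 16660 and 12989 in Alt, with both Alt libraries highest (log2FC 0.53 ± 0.19 (SE), adjusted p = 0.166). Both rRNAs were higher with the length correction, and neither was without Alt replicate 1 or without Ctr replicate 3.

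Lists of other genes that serve the mitochondrial ribosome are given beside 10.3% of all genes lower and 9.45% higher. Of 29 assembly factors, 3 were lower and 1 higher (median log2FC -0.33), led by Rpusd4, a pseudouridine synthase of the large rRNA (log2FC -1.56 ± 0.64 (SE), adjusted p = 0.205), and Mettl17, a factor of the small subunit (log2FC -0.66 ± 0.27 (SE), adjusted p = 0.209). Of 13 translation factors tested none passed in either direction in edgeR (median -0.26), with the elongation factor Tufm at -0.45 (adjusted p = 0.278) and the release factor Mtrf1l at -0.68 (adjusted p = 0.342). Of 20 mitochondrial aminoacyl-tRNA synthetases, 1 was lower, Tars2 (log2FC -0.50 ± 0.22 (SE), adjusted p = 0.239), and 1 was higher, Lars2, at 101, 209 and 55.6 CPM in Ctr, 53.5 and 84.9 in Ref, and 607 and 184 in Alt (log2FC 1.70 ± 0.50 (SE), adjusted p = 0.127). Of 13 genes tested for mitochondrial transcription and RNA processing, 2 were lower, the initiation factor Tfb2m (log2FC -0.79 ± 0.26 (SE), adjusted p = 0.143) and the RNase P subunit Hsd17b10 (log2FC -1.19 ± 0.49 (SE), adjusted p = 0.209). Without Alt replicate 2, where 18.9% of all genes were lower, the numbers lower in these 4 lists, in the same order, were 8, 5, 2 and 4. Without Alt replicate 1, where 4.46% of all genes were lower, they were 1, 0, 0 and 0. Without Ctr replicate 1, where 6.06% of all genes were lower, they were 1, 0, 0 and 1. Without Ctr replicate 3, where 8.12% of all genes were lower, they were 0, 0, 0 and 2. Without Ctr replicate 2 they were 4, 1, 0 and 2. Without Alt replicate 1 no gene of these lists was higher in edgeR, Lars2 included. Over the libraries left out, the median log2FC ran from -0.44 to -0.20 for the assembly factors, -0.57 to -0.099 for the translation factors, -0.18 to -0.092 for the synthetases and -0.19 to -0.015 for transcription and RNA processing.

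RNA of the genes that the mitochondrial ribosome translates and of the wider organelle was also read. Of the 13 protein-coding genes of mitochondrial DNA, none was lower in Alt than in Ctr in edgeR and 2 were higher, mt-Nd5 (log2FC 0.91 ± 0.22 (SE), adjusted p = 0.1197) and mt-Nd4l (log2FC 1.10 ± 0.22 (SE), adjusted p = 0.1197), both subunits of complex I. The number higher was 8 without Alt replicate 1 (against 3.68% of all genes), 4 without Ctr replicate 2 (against 9.42%) and 8 with the length correction (against 7.3%). Conversely, 3, 2 and 1 of these genes were lower without Alt replicate 2, Ctr replicate 1 and Ctr replicate 3, where 18.9%, 6.06% and 8.12% of all genes were. In Ref versus Ctr 2 of the 13 genes were higher and none lower, mt-Nd4l (log2FC 0.84 ± 0.22 (SE)) among them, against 2.19% of all genes higher. In Alt versus Ref mt-Nd4l did not pass (log2FC 0.26 ± 0.24 (SE), adjusted p = 0.656) and mt-Nd5 was higher (log2FC 0.58 ± 0.24 (SE), adjusted p = 0.292). Of 27 nuclear genes taken as signs of mitochondrial content, 10 were lower and 2 higher in Alt than in Ctr, against 10.3% and 9.45% of all genes (median log2FC -0.30), with the smallest p for the citric acid cycle enzyme Mdh2 (log2FC -0.83 ± 0.22 (SE), adjusted p = 0.122) and the prohibitin Phb2 (log2FC -0.67 ± 0.20 (SE), adjusted p = 0.127). Without Alt replicate 1, 3 of them were lower, against 4.46% of all genes, and none higher (median -0.18). Nuclear genes for subunits of oxidative phosphorylation had 57 of 82 lower, against 10.3% of all genes, and none higher, with a median log2FC of -0.76. Cytosolic ribosomal protein genes had 57 of 79 lower and none higher, with a median of -0.67. Beside these, the median of the mitochondrial ribosomal protein genes was -0.64. These comparison lists were short genes too, with median lengths of 1560 and 1770 bases, and after the length correction 45 and 39 were lower, against 9.06% of all genes, with medians of -0.51 and -0.41. Without Alt replicate 1 (4.46% of all genes lower) the numbers lower were 25 and 15, with medians of -0.36 and -0.34, and without Ctr replicate 1 (6.06% of all genes lower) they were 37 and 33. Without Alt replicate 2 (18.9% of all genes lower) they were 72 and 73, with medians of -1.29 and -1.14.

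Markers of the cell types in the tissue also differed between groups. The summed level of the 10 neuronal markers was 10723 to 10898 CPM in Ctr, 10461 to 11448 in Ref and 12074 to 12925 in Alt, and that of 8 astrocyte markers was 5386 to 7004 CPM in Ctr, 7372 to 8907 in Ref and 8109 to 11381 in Alt. The sum of 9 oligodendrocyte markers was 2413 to 3410 CPM in Ctr, 4086 to 5070 in Ref and 2368 to 2909 in Alt. For 8 microglial markers it was 371 to 431 CPM in Ctr, 431 to 441 in Ref and 374 to 400 in Alt, and for 6 endothelial markers 309 to 381 CPM in Ctr, 391 to 473 in Ref and 414 to 477 in Alt. Both Alt libraries had neuronal sums above the other 5, and astrocyte sums above Ctr that overlapped those of Ref. Single markers did not all move with these sums, and their counts stand beside 10.3% of all genes lower and 9.45% higher in Alt versus Ctr. In Alt versus Ctr 1 neuronal marker was lower and 3 were higher (median log2FC 0.022), and 1 astrocyte marker was lower and 1 higher (median 0.098). Of the oligodendrocyte markers 2 were lower and none higher (median -0.065), of the microglial markers 3 were lower and 1 higher (median -0.37), and of the endothelial markers none was lower in edgeR and 1 higher (median 0.27). Leaving out a library gave 0 to 2 neuronal markers lower and 0 to 5 higher, 1 to 3 microglial markers lower, and 0 to 1 astrocyte and 1 to 2 oligodendrocyte markers lower. Over all genes, 4.46% were lower and 3.68% higher without Alt replicate 1, and 18.9% and 14.3% without Alt replicate 2, the fit with 5 neuronal markers higher. Of the endothelial markers 3 were higher without Alt replicate 1 (median 0.41), 2 were higher without Ctr replicate 3 (median 0.35), and 2 were lower without Alt replicate 2 (median 0.017). The oligodendrocyte median was -0.30 without Alt replicate 1 and turned sign, to 0.14 without Alt replicate 2 and 0.22 without Ctr replicate 2, and the neuronal median turned sign, to -0.034, without Ctr replicate 3. With the length correction the medians were 0.055 for neuronal, -0.061 for astrocyte, 0.060 for oligodendrocyte, -0.12 for microglial and 0.22 for endothelial markers, so that the astrocyte and oligodendrocyte medians turned sign. Of the oligodendrocyte markers, 7 of 9 were lower in Alt versus Ref (median -0.83, against 8.83% of all genes) and 7 of 9 were higher in Ref versus Ctr (median 0.77, against 2.19% of all genes). In Ref versus Ctr 3 of 8 astrocyte markers (median 0.32) and 1 of 6 endothelial markers (median 0.24) were higher too, against the same 2.19%, and none was lower. No marker was at 0 in any library. The summed level of 5 nuclear lncRNAs such as Malat1 was 843 to 973 CPM in Ctr, 945 to 984 in Ref and 922 to 1351 in Alt. With Xist, which was left out of this sum, 6 such lncRNAs were tested, of which 1 was lower and 2 were higher in Alt than in Ctr, and their median log2FC of 0.22 turned to -0.12 with the length correction. Reads on mitochondrial DNA took 12.2% to 16.6% of a library, with 12.7% for Alt replicate 1 and 15.9% for the other Alt library. The part of any of these in the members' values was not tested.

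The members were also set out by promoter motif, as a description with no test. Members with at least 1 of the 3 motifs had a median log2FC of -0.54 in Alt versus Ctr (12 of 42 lower), and members whose windows held none had -0.74 (15 of 26 lower). With an NRF1 motif 6 of 18 were lower, with an ETS motif 8 of 25 and with a YY1 motif 1 of 8, which was Mrps24, beside 10.3% of all genes. The divergent pair with a shared promoter region is given side by side, and the difference between its members was not tested. Mrps11 measured 5.26, 2.36 and 4.598 CPM in Ctr, 5.66 and 4.71 in Ref, and 1.56 and 3.12 in Alt (log2FC -0.79, adjusted p = 0.377) and Mrpl46 measured 7.298, 5.91 and 8.87 CPM in Ctr, 9.53 and 6.67 in Ref, and 7.28 and 7.86 in Alt (log2FC 0.041), and neither passed the test. Mrps11 is described here for its place beside Mrpl46, after its values were seen. Their transcribed intervals overlap by 413 bases on opposite strands, so that reads may be shared between them.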

How the data were processed

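RNA-seq libraries of PFC tissue (7, from female mice) were grouped and numbered from the sample titles. The authors deposited, for each of 55416 genes, the count of reads, not normalized, with the gene's length. They also deposited TPM and FPKM values, which the authors computed from these counts and lengths. The submitters' processing notes name STAR, featureCounts and hg19. The gene identifiers are of mouse, and the mouse build is not given in the sources used here.

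The test was edgeR 4.0.16 in R 4.3.3 (TMM, filterByExpr, glmQLFit, glmQLFTest, all 7 libraries in a model of 3 group means), with Benjamini-Hochberg adjustment over all 17254 genes tested. A gene was called lower or higher at an unadjusted p of 0.05, and calls at an adjusted p of 0.05 are given beside them. Log2FC values and their SE come from this fit, and levels in CPM use the TMM factors. Total counts of 16655697 to 20750857 per library set the precision. Scripts were tested on simulated data.

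Alternatives were DESeq2 1.42.0 (pairwise, and with the order Ctr, Ref, Alt as a numeric score), DESeq2 size factors, no genes of mitochondrial DNA, no low-count filter, loess corrections (span 0.3) for gene length and GC content, a robust fit, only the groups compared, the replicate number as a block, and each library left out. The sample titles do not say that replicate numbers pair the samples. GC content came from transcripts of GENCODE M21, matched by gene identifier, and promoter sequences came from RefSeq (GRCm38.p6).

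The members, gene lists, motifs and alternatives were chosen with earlier results of these data known. Members named with values are the 10 with the smallest p, the 5 highest and 5 lowest by log2FC in Alt versus Ctr, the 5 highest and 5 lowest by mean FPKM, those passing in Ref versus Ctr, those not tested and 24 with a known role or disease link. From each list of genes that serve the ribosome, of mitochondrial DNA and of mitochondrial content, the 2 genes with the smallest p are named. Every other ribosomal protein and rRNA is named too. From the comparison lists, the cell type markers and the nuclear lncRNAs no single gene is given with values. A translation factor, Mtrfr, did not match the table. Reads on the 6 processed pseudogenes named after members were left out and reached at most 44 in a library.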

Additional observations from a re-analysis of the deposited data

How the results depend on the processing

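Depth and the number of libraries limit these results, since groups of 2 and 3 libraries share 1 estimate of the spread and many members have under 100 reads in Alt replicate 1. The number of members called in Alt versus Ctr (30) was 18 with the replicate number as a block (12.6% of all genes called in either direction) and 9 to 54 when a library was left out. The numbers come from the sample titles, which name no pairs. Same-numbered libraries had correlations of their deviations between -0.0984 and 0.0702. In groups of 2 libraries the deviations from the group mean mirror each other, so these values cannot decide whether samples were paired. No other setting moved this count by over 1.5 times. At an adjusted p of 0.05, where edgeR called 0, DESeq2 called 8, edgeR without a low-count filter called 14 (5.52% of all genes), and leaving out a library gave 0 to 38, the latter without Alt replicate 2 (18.3% of all genes). The median log2FC ran from -1.05 to -0.38 over the libraries left out, and no setting turned its sign. In Alt versus Ref (21 members), the length correction gave 11, and leaving out a library gave 6 to 44, with medians from -0.86 to -0.28. At an adjusted p, DESeq2 called 1 there, edgeR without the filter 7 (3.16% of all genes), and fits without a library 0 to 32, again without Alt replicate 2 (14.4% of all genes). The cause of these shifts was not tested. In Ref versus Ctr no member was called under any of 16 alternatives. DESeq2 with the order Ctr, Ref, Alt as a numeric score called 3 members, Mrps24, Mrpl28 and Mrpl30 (5.25% of all genes with an adjusted p), and 0 with the length correction, as edgeR did. TPM in place of FPKM named the same 10 members at the ends of the order of levels.

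Of 720 values in Alt versus Ctr, for the 45 members named by the rule under 16 alternatives, 621 kept their direction and side of an unadjusted p of 0.05, 47 no longer passed, 32 newly passed and 20 turned sign. Of the 32 other members tested, 4 turned sign under an alternative (Mrpl14, Mrpl19, Mrpl42 and Mrpl47, named for this count after their values were seen). No member that turned had passed the test. With the length correction, log2FC was 0.031 for Mrpl10, 0.045 for Mrps18b, 0.17 for Mrps18c and -0.055 for Mrps17, and with the GC correction it was -0.019 for Mrpl35. For Mrpl33 it was 0.00071 in DESeq2 and 0.00051 with DESeq2 size factors in edgeR. Over the libraries left out, log2FC ran from -0.44 to 0.10 for Mrpl3, -0.64 to 0.40 for Mrpl33, -0.14 to 0.20 for Mrpl35, -0.092 to 0.20 for Mrpl46, -2.63 to 0.55 for Mrps16, -0.010 to 0.077 for Mrps17, -1.28 to 0.42 for Mrps18b, -0.44 to 0.076 for Mrps18c and -0.91 to 0.27 for Mrps30.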
